A study of Mus musculus with 6 samples.

Results

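miR-874 and miR-185 (mmu-miR-874 and mmu-miR-185) are 2 mature mouse microRNAs (miRNAs), short RNAs that lower the output of messenger RNAs, and both were measured at lower levels in the left ventricle of mice with a hypertrophic cardiomyopathy mutation than in wild-type mice. They are 2 of the 698 miRNAs of the deposited small RNA sequencing table and were picked by name for being lower in all mutant libraries than in any wild-type library. The mutant group held 3 aged HCM mutant mice, labelled aMHC403/+ and carrying the R403Q change in Myh6, the gene of the alpha-myosin heavy chain, next to a wild-type copy of the gene. The other group held 3 aged mice with a WT genotype label. All 6 mice were more than 50 weeks old, none is labelled with a treatment other than age, and HCM is taken here as hypertrophic cardiomyopathy, a thickening of the heart muscle. The titles call the samples biological replicates and name no litter or batch. If they were not separate animals, the spread reported here would be partly technical.

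An miRNA is cut from a hairpin precursor, and the bases at positions 2 to 8 of the mature strand, the seed, pair with messenger RNAs, usually in their 3′ untranslated regions (3′ UTRs). As background from mouse heart studies, miR-185 is known as an miRNA that restrains hypertrophy of heart muscle cells, with Camk2d, Slc8a1 and Nfatc3 reported as targets. These genes encode a calcium-dependent kinase, the sodium-calcium exchanger and a calcineurin-responsive transcription factor. miR-874 is known from mouse heart muscle cells as an miRNA that lowers caspase-8, encoded by Casp8, and promotes necrosis.

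The mature sequences of the deposited table are shown because each decides which messages the miRNA can pair with. The seed is in capitals.
miR-874: cTGCCCTGgcccgagggaccga
miR-185: tGGAGAGAaaggcagttcctga
The seeds differ, and no other miRNA of the table had the seed of miR-874. The seed of miR-185 was shared by 1 other miRNA, miR-882, which had 0 reads in all 6 libraries. Levels are given as RPM, reads per 1000000 miRNA reads. For miR-882, 0 reads allowed a level of up to 0.574 RPM in WT replicate 3 and up to 1.21 RPM in HCM mutant replicate 3.

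The hairpins are shown to place the measured arm, which is in capitals. They come from RefSeq on build GRCm38.p6.
Mir874: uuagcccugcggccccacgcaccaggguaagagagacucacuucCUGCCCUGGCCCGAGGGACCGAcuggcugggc
Mir185: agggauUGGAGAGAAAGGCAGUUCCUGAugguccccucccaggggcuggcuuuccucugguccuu
miR-874 is the 3′ arm, bases 45 to 66 of a hairpin of 76 bases, and lies at chr13:58023135-58023156 on the minus strand. miR-185 is the 5′ arm, bases 7 to 28 of a hairpin of 65 bases, and lies at chr16:18327438-18327459 on the minus strand. By the GENCODE M21 annotation (GRCm38), the precursor of miR-874 lies within Klhl3, a gene of a substrate adaptor of a ubiquitin ligase, and that of miR-185 within Tango2, a gene named for transport and Golgi organization. Neither precursor overlapped an exon of its host, so both are intronic and on the strand of the host. The opposite arms of both hairpins were not analysed here. Whether the host transcripts differed was not measured.

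The libraries held between 2483486 and 5223637 miRNA reads, the shallowest being HCM mutant replicate 3, and between 367 and 407 miRNAs were detected in each. miRNAs of heart muscle dominated: miR-1, miR-133a, miR-208a, miR-208b and miR-499 summed to between 400915 and 463229 RPM in the mutants and between 425032 and 503983 RPM in WT. The fibroblast list, chosen with earlier results of these data known, held miR-21, miR-199a-5p, miR-199a-3p and miR-214. For each of them every mutant lay above every WT library, and whether fibroblasts were the source was not tested. Summed markers of fibroblasts (4 of 4 found) lay between 3931 and 8512 RPM in the mutants and between 1613 and 3040 RPM in WT. Those of white blood cells (4 of 4) lay between 2077 and 2361 RPM in the mutants and between 1310 and 1743 RPM in WT. In this list miR-142-3p, miR-142-5p and miR-223 were higher on average in the mutants. The groups did not overlap for miR-142-3p and miR-142-5p but overlapped for miR-223. miR-150 went the other way, with a mean of 133 RPM in the mutants and 185 RPM in WT and overlapping groups. Summed markers of neurons (miR-124 and miR-9, 2 of 2) were between 18.0 and 21.4 RPM in the mutants and between 15.3 and 16.3 RPM in WT. Most of this sum was miR-9, at 15.7, 21.2 and 18.9 RPM in the mutants and 15.6, 14.5 and 14.7 RPM in WT. Epithelium markers (4 of 4) summed to between 13.4 and 14.2 RPM in the mutants and between 15.3 and 26.4 RPM in WT. In these 4 lists the sums of the groups did not overlap, and their part in the levels of miR-874 and miR-185 was not tested. Such separation was common among single miRNAs in the upward direction. Of the 193 miRNAs averaging 10 RPM or more, every mutant lay above every WT library for 18.1% and below for 2.59%. The groups overlapped for the summed heart muscle markers as well as for the summed endothelial, smooth muscle, red blood cell and liver markers, the last at 1.17 RPM or less. Single heart muscle markers went in both directions. Every mutant lay below every WT library for miR-499 and above every WT library for miR-208b, while the groups overlapped for miR-1, miR-133a and miR-208a. None of the markers was at 0 in all 6 libraries. Since RPM gives shares, it falls when other miRNAs rise, and in whole tissue fewer cells of a type and less RNA per cell cannot be told apart.

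miR-185, the anti-hypertrophic miRNA, was of middling abundance, ranking 68 of the 193 miRNAs analysed further, whose level averaged 10 RPM or more across all 6 mice. Its level was 254, 296 and 265 RPM in the mutants (replicates 1 to 3), against 362, 332 and 387 RPM in WT. The highest mutant lay 36.4 RPM below the lowest WT library, a gap of 11.0% of that WT value. The means were 272 ± 21.6 RPM in the mutants and 360 ± 27.2 RPM in WT (SD, n = 3 each), so the mutant mean was 24.6% below that of WT. These levels rested on 1085, 1229 and 658 reads in the mutants and 1319, 1236 and 2020 reads in WT.

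The counting error of miR-185 was smaller than its spread between libraries. The 95% exact Poisson interval, which covers counting error only, ran from 280 to 313 RPM in mutant replicate 2, the highest mutant, and from 314 to 351 RPM in WT replicate 2, the lowest WT library. In none of the 9 pairs of a mutant and a WT library did these intervals overlap. Since miR-185 was picked for libraries that do not overlap, this count only describes that choice. The intervals leave out the spread between libraries, so they are too narrow to compare the groups. The coefficient of variation between libraries was 7.95% in the mutants and 7.56% in WT, against 3.29% and 2.62% for counting error alone in the same groups.

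miR-874, the miRNA with caspase-8 as a reported target, was among the least abundant miRNAs analysed, at rank 188 of 193. Its level was 11.2, 7.46 and 6.44 RPM in the mutants, against 16.7, 14.0 and 12.8 RPM in WT. Every mutant lay below every WT library, but mutant replicate 1 came within 1.58 RPM of WT replicate 3. The means were 8.38 ± 2.53 RPM in the mutants and 14.5 ± 2.003 RPM in WT (SD, n = 3 each), so the mutant mean was 42.2% below that of WT. The mutant mean lay under the 10 RPM filter, which the miRNA passed through its WT level.

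Few reads stood behind these values: 48, 31 and 16 in the mutants and 61, 52 and 67 in WT. The 95% exact Poisson interval was 8.29 to 14.9 RPM in mutant replicate 1, which overlapped the intervals of all 3 WT libraries. Mutant replicates 2 and 3 each overlapped 2 of them, so the intervals overlapped in 7 of the 9 pairs. With reads summed, 95 reads in the mutants gave 8.71 RPM (7.05 to 10.6) and 180 reads in WT gave 14.3 RPM (12.3 to 16.5). These summed intervals also cover counting error only. They leave out the spread between libraries, so they are too narrow to compare the groups. Between libraries the coefficient of variation was 30.2% in the mutants and 13.8% in WT, against 19.6% and 13.0% for counting error alone.

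**Figure D1:**
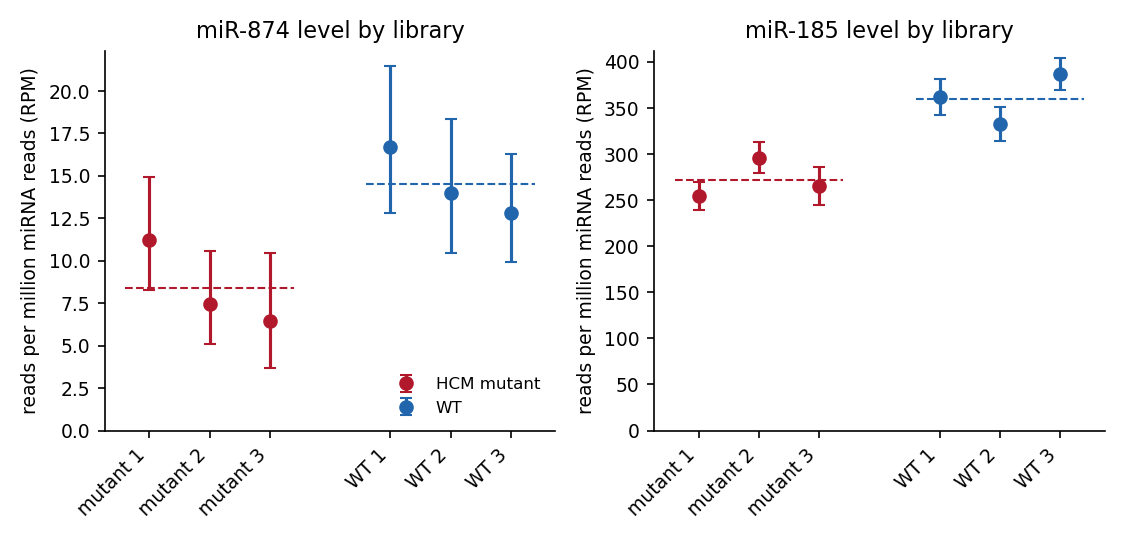
Level of miR-874 (left) and miR-185 (right) in RPM, for the 3 HCM mutant and 3 WT libraries; bars are 95% exact Poisson intervals (counting error only) and dashed lines are group means. Each mutant point lies below each WT point, for which both miRNAs were picked. The intervals overlap in 7 of 9 pairs for miR-874 and in 0 of 9 for miR-185, and are too narrow to compare the groups.

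Within the groups the 2 miRNAs ordered the libraries differently. Among the mutants miR-874 was highest in replicate 1, where miR-185 was lowest. Among the WT libraries miR-874 was lowest in replicate 3, where miR-185 was highest. miR-185 stood at 22.6, 39.6 and 41.1 times the level of miR-874 in the mutants and at 21.6, 23.8 and 30.1 times in WT. The ratio of mutant replicate 1 lay within the WT range, and the groups overlapped.

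As a log2(RPM + 1) difference of mutant minus WT from limma fitted across all 193 miRNAs, miR-874 differed by −0.75 ± 0.27 (SE) with a 95% interval of −1.31 to −0.20, and miR-185 by −0.41 ± 0.22 with a 95% interval of −0.85 to 0.04. These differences describe the choice of the members, so no p is given for them. The interval of miR-185 held 0 although its libraries did not overlap. limma draws each spread towards that of miRNAs of like abundance, and its SE reflects this. The median difference of the 193 miRNAs was 0.15, with 137 above 0 and 56 below 0. Relative to this median miR-874 stood at −0.90 and miR-185 at −0.56.

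In the order of the 193 differences miR-874 came first, the most negative, and miR-185 eighth (rank 8). With each library left out, the rank of miR-874 was 1 or 2, and that of miR-185 ran from 5 (without HCM mutant replicate 3) to 19 (without HCM mutant replicate 1). Next to miR-874 came miR-499, an miRNA of heart muscle encoded in a myosin gene, at −0.55 ± 0.17. On either side of miR-185 lay miR-29c*, the minor arm of an miR-29 family precursor, at −0.42 ± 0.27, and miR-22*, a minor arm, at −0.38 ± 0.24. The SE bars of these neighbours overlap those of miR-874 and miR-185, so the order among them is within error. The ranks come from the values by which miR-874 and miR-185 were picked and only describe that choice. The runs with a library left out kept the same 193 miRNAs. With no filter the ranks were 17 for miR-874 and 47 for miR-185 of 478 miRNAs.

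All mutants lay below all WT libraries for 5 miRNAs, or 2.59% of those tested, and all mutants lay above all WT libraries for 35, or 18.1%. miR-874 and miR-185 are 2 of these 5 by choice. The others were miR-499, miR-19b, which is encoded in the miR-17-92 cluster and in a paralogous cluster, and miR-29c, which is known to lower collagen messages. The gap between the highest mutant and the lowest WT library was 12.3% of the lowest WT value for miR-874 and 11.0% for miR-185, against 20.8% for miR-499, 11.1% for miR-29c and 8.74% for miR-19b. At an adjusted p under 0.05 limma with Benjamini-Hochberg adjustment called 0 miRNAs lower (0.0%) and 10 higher (5.18%). At an unadjusted p under 0.05 it gave 4 lower and 38 higher, and edgeR's quasi-likelihood test on the recovered reads called 0 lower and 11 higher after adjustment.

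**Figure D2:**
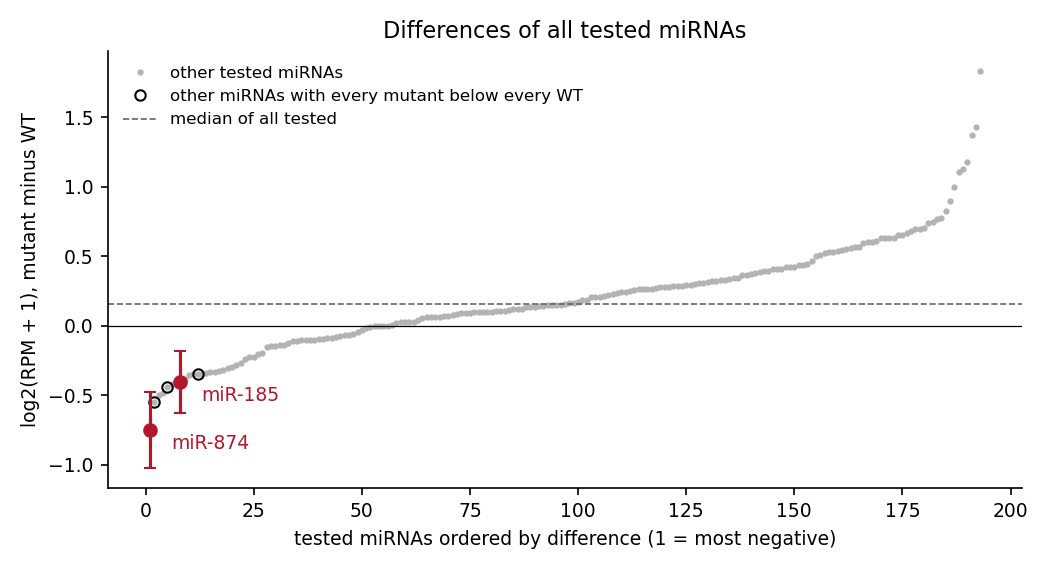
Differences of the 193 tested miRNAs (mutant minus WT, log2(RPM + 1)) in order, with miR-874 and miR-185 in red (bars are SE), the 3 other miRNAs with every mutant below every WT library as open circles, and the median as a dashed line. miR-874 is at rank 1 and miR-185 at rank 8, below the median of 0.15.

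The miRNAs with the most similar profiles were found by the root mean square distance between log2(RPM + 1) values over the 6 libraries, each miRNA centred on its own mean. The distances take no account of counting error, which is larger for miRNAs with few reads, such as miR-874 and miR-19b. For miR-185 the closest was miR-19b at a distance of 0.08, followed by miR-128, an miRNA abundant in brain, at 0.14 and miR-29c at 0.15. miR-19b had 11.5, 12.8 and 10.1 RPM in the mutants, against 15.9, 14.0 and 17.8 RPM in WT. As in miR-185, replicate 2 was the highest mutant and the lowest WT library. miR-128 had 82.2, 102 and 85.4 RPM in the mutants, against 96.8, 113 and 109 RPM in WT, and its groups overlapped.

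For miR-874 the closest was miR-499 at 0.23, followed by miR-22* at 0.26 and miR-29c at 0.27. miR-499 had 12600, 12871 and 9620 RPM in the mutants, against 16252, 17711 and 16949 RPM in WT. miR-29c had 12985, 11505 and 11994 RPM in the mutants, against 16276, 15493 and 14612 RPM in WT. miR-22* had 92.8, 67.2 and 70.9 RPM in the mutants, against 93.8, 116 and 91.1 RPM in WT, with mutant replicate 1 inside the WT range. The distance between miR-874 and miR-185 was 0.34, which placed miR-185 at position 12 in the order of likeness to miR-874 and miR-874 at position 66 in that of miR-185.

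**Figure D3:**
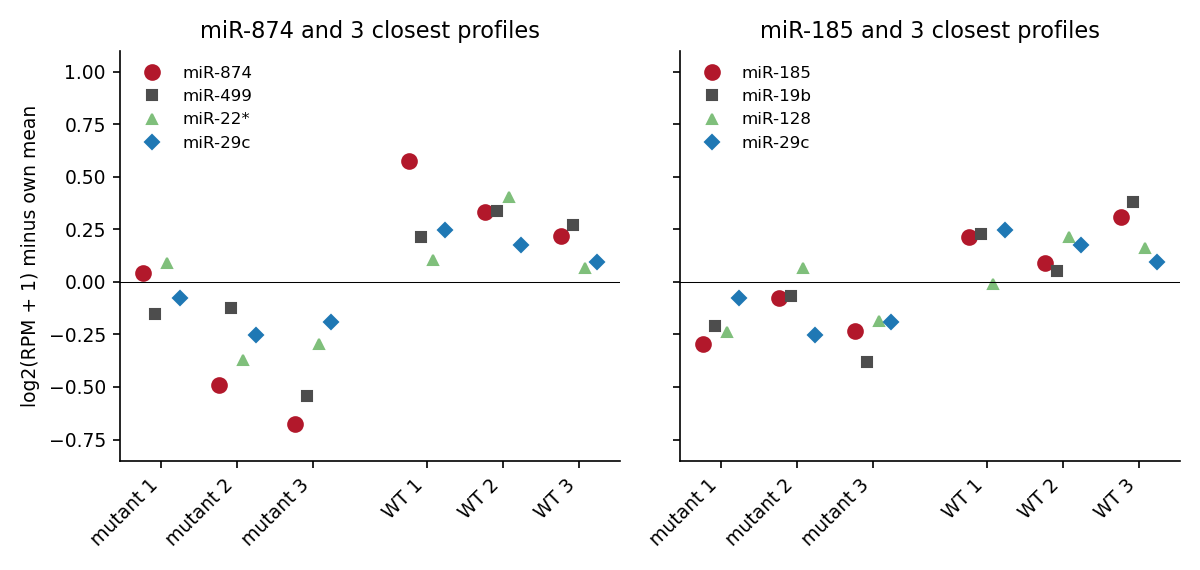
log2(RPM + 1) minus each miRNA's own mean over the 6 libraries, for miR-874 (left) and miR-185 (right) with the 3 miRNAs of smallest distance. miR-185 and miR-19b lie close in all 6 libraries (distance 0.08), while miR-874 is set apart from its closest miRNAs by larger distances (0.23 and more). Counting error is not taken into account, and both miR-19b and miR-874 have few reads.

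The base composition of miR-874 was extreme. With 77.3% G and C it had the highest share of the 193 miRNAs, whose median was 47.6%, whereas miR-185 had 50.0%. The 19 miRNAs with at least 60% G and C, miR-874 among them, had a median difference of 0.10, with 6 below 0. The medians were 0.26 for the 63 miRNAs from 50% to under 60%, 0.16 for the 68 from 40% to under 50%, and 0.07 for the 43 under 40%. By low abundance, the 31 miRNAs with a mean from 10 to under 20 RPM, again with miR-874, had a median of 0.32, with 8 below 0.

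miR-185 was set beside 16 other miRNAs reported to restrain hypertrophy of heart muscle, of which 15 were tested and miR-133b was under the filter. By limma with Benjamini-Hochberg adjustment over all 193 miRNAs, 0 of the 15 passed as higher and 0 as lower. At an unadjusted p under 0.05, 2 of the 15 were lower (miR-1 and miR-29c) and 0 higher, against 2.07% lower and 19.7% higher over all 193, and edgeR's quasi-likelihood test called 0. Their median difference was −0.03, against 0.15 over all miRNAs tested, with 8 below 0 and 7 above. Every mutant lay below every WT library for 1 of the 15, miR-29c, and above for 1, miR-9, an miRNA enriched in neurons that is also among the neuron markers above. Over all 193 miRNAs the shares were 2.59% below and 18.1% above.

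None of the 4 most abundant members of this list passed. miR-1, the dominant muscle miRNA, had 265661, 249195 and 202711 RPM in the mutants, against 325317, 255310 and 300097 RPM in WT, and its groups overlapped (−0.30 ± 0.14, limma adjusted p = 0.209). miR-26a, a widely expressed miRNA, averaged 49779 ± 9237 RPM in the mutants and 46658 ± 7376 RPM in WT (SD, n = 3 each). miR-29b, of the anti-fibrotic miR-29 family, averaged 38111 ± 1072 RPM in the mutants and 36545 ± 3754 RPM in WT. miR-99a averaged 38971 ± 4676 RPM in the mutants and 35438 ± 5455 RPM in WT. The differences of these last 3 were 0.09, 0.07 and 0.14, with limma adjusted p of 0.812, 0.817 and 0.655.

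miR-874 was set beside 12 miRNAs reported to act on death of heart muscle cells, of which 10 were tested. One of the others, miR-325, was under the filter, and miR-2861 was not analysed here. By limma 0 passed as higher and 0 as lower over all miRNAs. At an unadjusted p under 0.05, 1 of the 10 was higher (miR-223) and 1 lower (miR-499), against 19.7% higher and 2.07% lower over all 193, and edgeR's quasi-likelihood test called 0. The median was 0.17, against 0.15 over all miRNAs tested, with 7 above 0 and 3 below. The lowest was miR-499, which is known to protect heart muscle cells from death (limma adjusted p = 0.0559), and the highest was miR-223, an miRNA of myeloid blood cells, with 237, 353 and 370 RPM in the mutants, against 203, 278 and 174 RPM in WT (0.55 ± 0.24, limma adjusted p = 0.172). miR-24 averaged 3896 ± 619 RPM in the mutants and 3150 ± 530 RPM in WT, and miR-103 averaged 479 ± 12.7 RPM in the mutants and 421 ± 97.3 RPM in WT (SD, n = 3 each). Their limma adjusted p were 0.406 and 0.629.

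**Figure D4:**
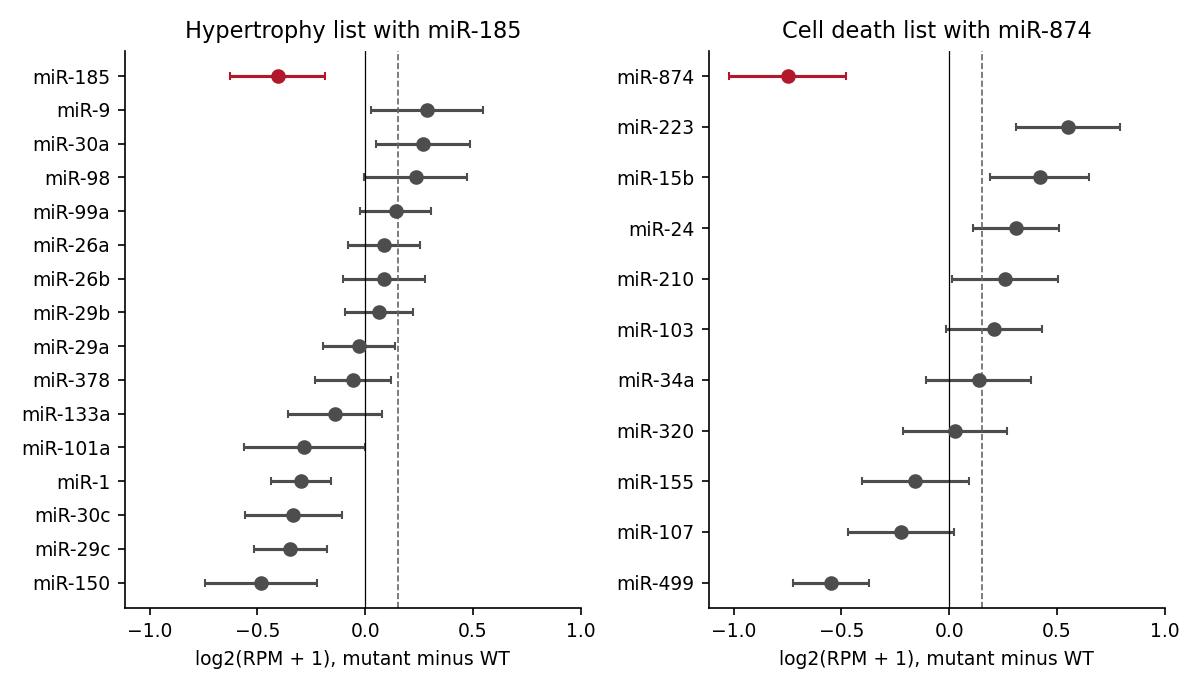
Differences (mutant minus WT, log2(RPM + 1), bars are SE) of miR-185 with the 15 tested miRNAs reported to restrain hypertrophy (left) and of miR-874 with the 10 tested miRNAs reported to act on cell death (right); the dashed line is the median of all tested miRNAs. Members lie on both sides of 0, with list medians of −0.03 (left) and 0.17 (right).

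To show where the seeds could pair, the 3′ UTRs of the reported mouse targets were searched for the reverse complement of the seed, on the sense strand of the longest annotated 3′ UTR of each gene (GENCODE M21). The 7 letters TCTCTCC, which pair with the seed of miR-185, stood in 18.6% of 21022 such UTRs, whose median length was 961 bases. Camk2d held 2 of these matches in 3591 bases, Slc8a1 held 4 in a very long UTR of 15586 bases, and Nfatc3 held 1 in 2495 bases. These UTRs are longer than the median, so the share over all UTRs is not a like background for them. Atp2a2, the gene of the calcium pump of the sarcoplasmic reticulum and a target reported in mouse brain, held 0. One match per gene is shown, the first that is followed by an A where there is one, with the match in capitals.
Camk2d, chr3:126844762-126844768, plus strand: aaatcgtgatttgtTCTCTCCag
Slc8a1, chr17:81379768-81379774, minus strand: tgagcacacagtgcTCTCTCCat
Nfatc3, chr8:106128076-106128082, plus strand: ctgctcagcctgctTCTCTCCcg
The 7 letters CAGGGCA, which pair with the seed of miR-874, stood in 12.6% of the UTRs, and Casp8 held 0 matches in its 749 bases. A match is a stretch of letters and not a measured site, and messenger RNA was not measured in these samples.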

How the data were processed

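Left ventricles of 3 HCM mutant and 3 WT mice, grouped by genotype label, gave 1 small RNA library each. Per the labels' protocols, a miRNA isolation kit and a multiplexed library preparation were used. Which aligner, counter and build the authors used is not stated in the labels or header. The authors deposited RPM values, reads per 1000000 miRNA reads, 1 per miRNA and library, which the file header calls normalised. The unit was read from the values, since 100% were whole multiples of 1 read within 0.02 reads, which gave the reads back.

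Poisson intervals and floors (3 reads) cover counting error only, as no molecular identifiers are described. log2(RPM + 1) was fitted with limma 3.58.1 in R 4.3.3 (trend, two-sided, no covariates) for 193 miRNAs (average level 10 RPM or above), Benjamini-Hochberg adjusted, at a threshold of 0.05. edgeR 4.0.16 on the recovered reads was an alternative, with library totals and no further scaling, and called 11 miRNAs. Other alternatives were scalings (DESeq2 1.42.0 size factors, TMM, totals without the 5 most abundant miRNAs), pseudocounts, filters, a fit without trend, each library left out and the replicate number as a block.

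miR-874 and miR-185 were chosen for being lower in the mutants of these same data. The 2 miRNA lists, the marker lists and the target genes were chosen from general knowledge with earlier results of these data known. The text names the members, miRNAs with their seeds, up to the 4 most abundant tested miRNAs of each list and any that passed, the 3 closest profiles and the neighbours in the order of differences. miR-133b, miR-325, miR-2861 and miR-9 were named after their values were seen, to account for untested members and counts.

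In 20 simulated rounds with 40 of the 193 miRNAs changed, limma called 83.2% of the miRNAs changed 2-fold and 33.5% of those changed 1.5-fold, and 4.69% of all calls were false. The rounds changed as many miRNAs upwards as downwards, whereas 137 of the measured differences were above 0 and 56 below. Each miRNA was drawn independently, so shifts shared by many miRNAs of a library were left out, and the percentages do not cover them. The percentages average over all levels and were not computed for miRNAs as low as miR-874.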

Additional observations from a re-analysis of the deposited data

How the results depend on the processing

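miR-874 and miR-185 stayed lower in the mutants under every alternative run, a direction that their choice fixes, since groups that do not overlap cannot change it when a library is left out. The log2 difference of miR-874, −0.75, became −0.42 with a pseudocount of 10, which weighs more at low levels, and −0.96 to −0.60 with each library left out. That of miR-185, −0.41, became −0.56 with median-of-ratios scaling and −0.54 with totals without the 5 most abundant miRNAs, and −0.47 to −0.35 with each library left out. Scaling shifted the median of all miRNAs from 0.15 to −0.00081 (median-of-ratios), 0.05 (TMM) and 0.02 (totals without the 5 most abundant); relative to it miR-874 stood at −0.90 to −0.89 and miR-185 at −0.56 under these 3. In the order of differences miR-874 moved to rank 3 and miR-185 to rank 4 with a pseudocount of 10, and they moved to 17 and 47 of 478 miRNAs with no filter. miR-874 was not tested with a mean of at least 100 RPM. Opposite arms and the shared seed gave no value to vary.

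Of the list on hypertrophy 0 passed under all alternatives. Of the list on cell death 1, miR-499, passed as lower with median-of-ratios scaling, with totals without the 5 most abundant, with a mean of at least 100 RPM and with the replicate block, and 0 to 2 passed with each library left out (2, miR-499 lower and miR-223 higher, without HCM mutant replicate 1). Against 10 calls over all miRNAs there were 6 with median-of-ratios scaling (5 higher, 1 lower), 4 with TMM (all higher) and 17 with the replicate block (16 higher, 1 lower). Lower calls also came without a filter (7 higher, 2 lower of 478), with a mean of at least 100 RPM (9 and 1) and with totals without the 5 most abundant (6 and 1). Leaving out one library gave 1 to 24 calls, namely 1, 5 and 22 calls when WT replicate 3, 1 or 2 was dropped and 24 (21 higher, 3 lower) when HCM mutant replicate 1 was dropped. The cause was not tested.

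The replicate numbers were not taken to pair the mice, since the titles name no litter or batch. Same-numbered deviations correlated at 0.51, −0.07 and 0.18, and differently numbered ones at −0.42 to 0.40. These values cannot decide whether the mice were paired. The replicate block cannot change a mean difference in this balanced design (−0.75 for miR-874, −0.41 for miR-185), and moved the SE to 0.28 for miR-874, against 0.27, and to 0.23 for miR-185, against 0.22. Depth limits miR-874, with 16 to 67 reads a library.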
